A study of Mus musculus with 2 samples.

Results

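The 10 genes described here encode the NF-kB transcription factor subunits (Rel, Rela, Relb, Nfkb1 and Nfkb2), the classical cytoplasmic inhibitors of the IkB family (Nfkbia, Nfkbib and Nfkbie), the atypical IkB protein BCL3 (Bcl3) and the ubiquitin-editing enzyme A20 (Tnfaip3). They were chosen by name, as the rows of both deposited tables whose gene symbol equals a listed member, and all 10 were found among the 24346 symbols. RNA was sequenced from splenic CD4+ T cells of mice labelled HFD-MI, sorted at day 14. Of the 2 libraries, 1 came from mice that received probucol, which lowers cholesterol and acts as an antioxidant, and 1 from mice left untreated. Both groups thus share the HFD-MI model, which the series title ties to cardiac remodelling after an infarction. Strain, genotype, age, sex, the dose of the drug and the number of animals per library are not stated in the labels; the headers of both tables read HypoE, a term left without explanation there. The series asks which features of these T cells differ with treatment.

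The unit is FPKM, in which fragment numbers are divided by transcript length and by the size of the library, so levels of different genes can be set side by side per length. Each group has 1 library, so no replicate spread exists and no test was run. Intervals printed below are 95% counting intervals from fragment numbers estimated out of the FPKM values, in all about 10456400 fragments with probucol and 10384000 untreated. The intervals leave out any variation from animal to animal, sort to sort or preparation to preparation, and PCR copies cannot be removed. At this similar depth 14289 symbols were above 0 with probucol and 16876 untreated, which bears on genes at 0 or at low levels. The cells carried the markers of their label: Cd3e stood at 478 and 494 FPKM and Cd4 at 334 and 284 FPKM (probucol, then untreated, here and below), while of the CD8 genes Cd8a stood at 0.139 and 0.276 FPKM and Cd8b1 at 15.9 and 19.6 FPKM. RNA of other blood cells was present and differed between the libraries. Of 14 B cell markers 11 were found, with a summed level of 325 and 208 FPKM, most of it from Cd74 (258 and 180 FPKM). All 7 that reached a mean of 1 FPKM were higher with probucol, 5 of them by at least 2-fold. Among these 5 was Cd79a (20.7 and 8.48 FPKM), and Pax5 was listed at 0 in both. Of 12 erythroid markers 9 were found, all lower with probucol and none at 0, with a summed level of 304 and 1007 FPKM. The 8 natural killer markers summed to 8.78 and 18.7 FPKM, and 5 reached a mean of 1 FPKM. Of these, 4 were lower with probucol (Klrd1, Klrk1, Eomes and Gzma), with intervals that excluded 1. The other, Klrb1c, was higher, with an interval that included 1 (0.692 to 1.95). Below that mean, Ncr1 (1.04 and 0.0795 FPKM) was higher on about 13 and 1 fragments. Klre1 was higher on about 11 and 8, and Klra8 was at 0 in both. B cells and natural killer cells also express genes described here, and in bulk RNA fewer cells of a type and less RNA per cell cannot be told apart. Whether these cells had a part in the values of the NF-kB genes was not tested.

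NF-kB subunits work as pairs. In resting lymphocytes IkB proteins hold the pairs in the cytoplasm, and signals from the T cell receptor or from receptors of the TNF, interleukin 1 and Toll-like families activate IkB kinase, which marks IkB for destruction and lets the pairs enter the nucleus. A second, slower route passes through the kinase NIK, processing of the NF-kB2 precursor and RELB. Several members are known as transcriptional targets of NF-kB themselves, with IkB alpha and A20 as its feedback inhibitors. Transcript levels do not measure the location or the activity of these proteins.

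The promoters were searched for the kappa B consensus decamer, on both strands, because feedback through such sites is the best known transcriptional control of these genes. RefSeq promoter windows (GRCm38.p6, the assembly of mm10), 300 bases from 250 before to 50 after a transcript start, were matched for 8 of the 10 members at 11 starts; Relb and Nfkb1 were not matched. At least 1 match was found for 6 of these 8 genes, and none for Rela and Nfkbib. Over the whole table a match was found in 8.46% of 32851 promoter windows and for 9.55% of 27025 genes. The lines below give, 5′ to 3′ on the strand of the gene, 30 bases around each match at the most upstream start of these 6 genes, with the matching bases in capitals (overlapping matches are joined); they are shown so that the members with a kappa B match can be compared letter by letter.
Nfkbia, chr12:55492657-55492686, minus strand: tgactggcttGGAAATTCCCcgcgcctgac
Nfkbie, chr17:45555584-45555613, plus strand: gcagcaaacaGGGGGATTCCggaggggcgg
Tnfaip3, far site, chr10:19015516-19015545, minus strand: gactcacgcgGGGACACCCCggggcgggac
Tnfaip3, near site, chr10:19015403-19015432, minus strand: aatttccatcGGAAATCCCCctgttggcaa
Rel, chr11:23771042-23771071, minus strand: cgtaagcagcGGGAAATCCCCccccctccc
Nfkb2, far site, chr19:46304688-46304717, plus strand: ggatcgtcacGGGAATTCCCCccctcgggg
Nfkb2, near site, chr19:46304716-46304745, plus strand: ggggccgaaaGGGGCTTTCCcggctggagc
Bcl3, chr7:19822734-19822763, minus strand: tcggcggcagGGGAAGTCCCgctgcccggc
The matches lay 29 to 20 bases before the start in Nfkbia, 106 to 97 in Nfkbie, 125 to 116 and 12 to 3 in Tnfaip3, 92 to 82 in Rel, and 39 to 29 and 11 to 2 in Nfkb2, and 3 to 12 bases after the start in Bcl3. A match describes letters in a window and does not show that a factor binds there.

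All 10 genes were expressed in both libraries, and for each gene the values of the 2 libraries lay within 1.3-fold. Their levels ran from 5.59 FPKM (Rel, untreated) to 347 FPKM (Nfkbia, probucol), and their median was 39.1 FPKM with probucol against 38.7 FPKM untreated, against 14.9 and 14.4 FPKM over the 10663 genes with a mean of 1 FPKM or more. On the scale log2((probucol FPKM + 1)/(untreated FPKM + 1)), 0 of the 10 members were past 2-fold in either direction, beside 3.60% of those 10663 genes, and 0 were past 1.5-fold, beside 11.5%. None was past 1.3-fold either, a limit chosen after the values were seen, beside 25.5% of all genes tested and 19.6% of the 8042 genes with a mean of 5 FPKM or more. The ratio was above 0 for 4 members and below 0 for 6, with a median of -0.04, where the median of all genes tested was 0.02. The size of the ratio regardless of sign had a median of 0.10 for the members and 0.21 for all genes tested. The latter include genes at lower levels than any member: with probucol, 27.4% of them were below Rel, the lowest. No such median was taken over genes of like level. For 5 members the counting interval of the fold excluded 1, and it did so for 52.7% of all genes tested that had a transcript length. All 10 members passed the filter on low values in each library alone.

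**Figure D1:**
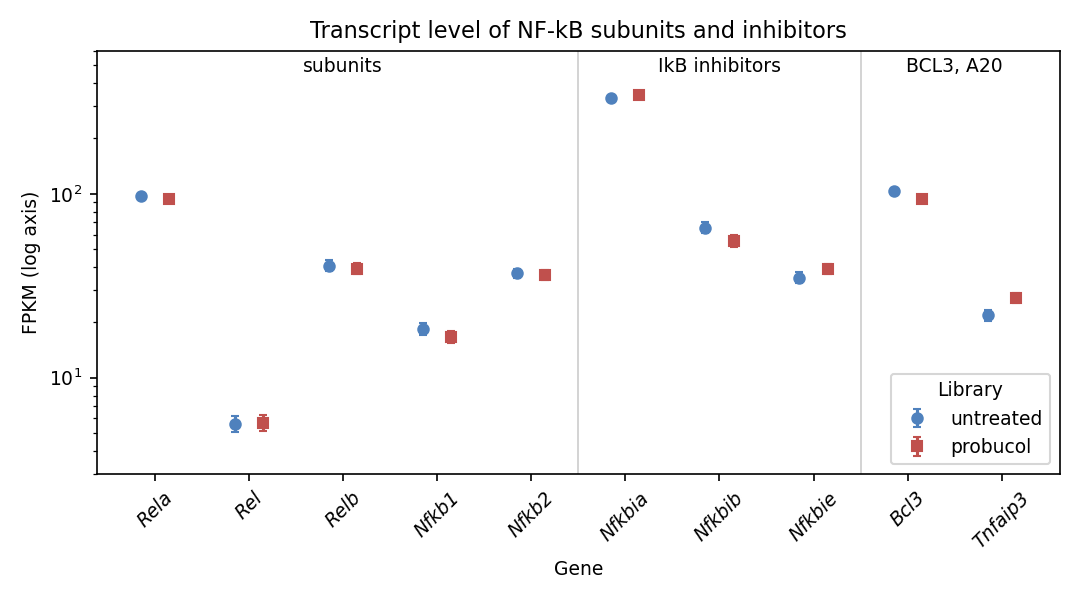
FPKM (log axis) of the 10 genes in the untreated (circles) and probucol (squares) library, 1 library each; bars are 95% counting intervals. The paired points lie close together for every gene, while levels between genes range from 5.59 FPKM (Rel) to 347 FPKM (Nfkbia).

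Among the subunits, Rela was the most abundant transcript and Rel the least. Rela (chromosome 19, 5637483 to 5648130, plus strand, mm10) encodes p65, the main activating subunit of the classical route, and stood at 93.6 FPKM with probucol against 97.7 FPKM untreated, on about 2344 and 2448 fragments. The fold of probucol over untreated was 0.959 (0.905 to 1.01). Rel (chromosome 11, 23736847 to 23770970, minus strand) encodes c-REL, the activating subunit best known for its role in lymphocytes and in the induction of interleukin 2. It stood at 5.65 and 5.59 FPKM, a fold of 1.01 (0.880 to 1.16), so the libraries did not differ beyond counting error; its annotated transcript of 7466 bases is the longest of the members, and about 409 and 405 fragments stand behind its low FPKM. Both activating subunits thus had intervals that include 1.

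Nfkb1 (chromosome 3, 135584655 to 135691547, minus strand) encodes p105, the precursor of the DNA-binding subunit p50. Its level was 16.6 FPKM with probucol against 18.4 FPKM untreated, a fold of 0.903 (0.811 to 1.01). This was the largest difference among the 5 subunits, and its interval just included 1. The second route showed the same closeness. Nfkb2 (chromosome 19, 46304320 to 46312385, plus strand), which encodes p100, the precursor of p52 and itself an inhibitor of RELB, stood at 36.0 and 36.9 FPKM, a fold of 0.977 (0.896 to 1.07). Relb (chromosome 7, 19606217 to 19629438, minus strand), the activating partner of p52, stood at 39.2 and 40.6 FPKM, a fold of 0.965 (0.874 to 1.07). For FPKM as deposited, all 5 intervals of the subunits included 1, and the whole of each lay between 0.811 and 1.16.

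The 3 classical IkB genes did not move in 1 direction. Nfkbia (chromosome 12, 55489410 to 55492647, minus strand) encodes IkB alpha, the inhibitor that NF-kB itself induces within minutes of activation. With 347 FPKM and 332 FPKM it had the highest level of the 10 genes in both libraries, above 96.9% and 96.8% of all genes tested, and its fold was 1.05 (1.003 to 1.09) on about 4755 and 4538 fragments. The lower bound lies just above 1, so the difference of 4.52% is at the edge of what counting error alone allows. Nfkbie (chromosome 17, 45555703 to 45563169, plus strand), which encodes IkB epsilon, an inhibitor best known in lymphocytes for binding REL and RELA, was 11.6% higher with probucol, at 39.0 and 35.0 FPKM, a fold of 1.12 (1.01 to 1.23).

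Nfkbib (chromosome 7, 28758251 to 28767512, minus strand), which encodes IkB beta, went the other way. It stood at 55.4 FPKM with probucol against 65.6 FPKM untreated, a fold of 0.845 (0.769 to 0.930), the lowest of the 10 genes. A lower ratio was seen in 19.6% of all genes tested. In GENCODE M21 the exons of Nfkbib share 314 bases with Ccer2 and 42 bases with Sirt2, both on the opposite strand, and the labels name no stranded counting, so reads of these genes in the overlap cannot be told apart. Sirt2 stood at 54.9 and 50.1 FPKM, higher with probucol. The overlap with Sirt2 is 1.94% of the exon bases of Nfkbib, and that with Ccer2 is 14.5%. Ccer2 is not analysed here.

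Bcl3 and Tnfaip3 differed in opposite directions. Bcl3 (chromosome 7, 19808462 to 19822770, minus strand) encodes a nuclear IkB-like protein that binds p50 and p52 pairs and can make them activating. Its level was 93.3 FPKM with probucol against 103 FPKM untreated, a fold of 0.906 (0.845 to 0.972). Tnfaip3 (chromosome 10, 19000910 to 19015657, minus strand), which encodes A20, the enzyme that edits ubiquitin chains on signalling proteins upstream of IkB kinase, had the highest ratio of the members. It stood at 27.1 FPKM with probucol against 21.9 FPKM untreated, a fold of 1.24 (1.14 to 1.36) on about 1128 and 911 fragments, and a log2 ratio of 0.30 on FPKM + 1. That ratio exceeded those of 80.7% of all genes tested. It was the largest difference among the 10 genes, and 34.8% of all genes tested differed at least as much in either direction. Ratios in these libraries moved with transcript length, and under a correction for it that rank was not clear. After the median ratio of genes of similar length was subtracted, an alternative chosen after seeing the data, Tnfaip3 fell to 0.19. Nfkbib and Nfkb1 were then both at -0.20, and these sizes differ by less than counting error. The length used for Tnfaip3, 4378 bases, lies just past a bin edge at 4375 bases. The subtracted median steps there from 0.06 to 0.11. GENCODE M21 places exons of other genes over those of 2 further members, on the opposite strand: Psd, at 1.06 and 0.892 FPKM, shares 299 bases with Nfkb2, the noncoding gene AC114539.1 shares 531 bases with Nfkb2, and the antisense gene Gm16175 shares 161 bases with Bcl3. The overlap with AC114539.1 is 11.6% of the exon bases of Nfkb2 and that with Psd 6.5%, and that with Gm16175 is 6.5% of those of Bcl3. AC114539.1 and Gm16175 are not analysed here.

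**Figure D2:**
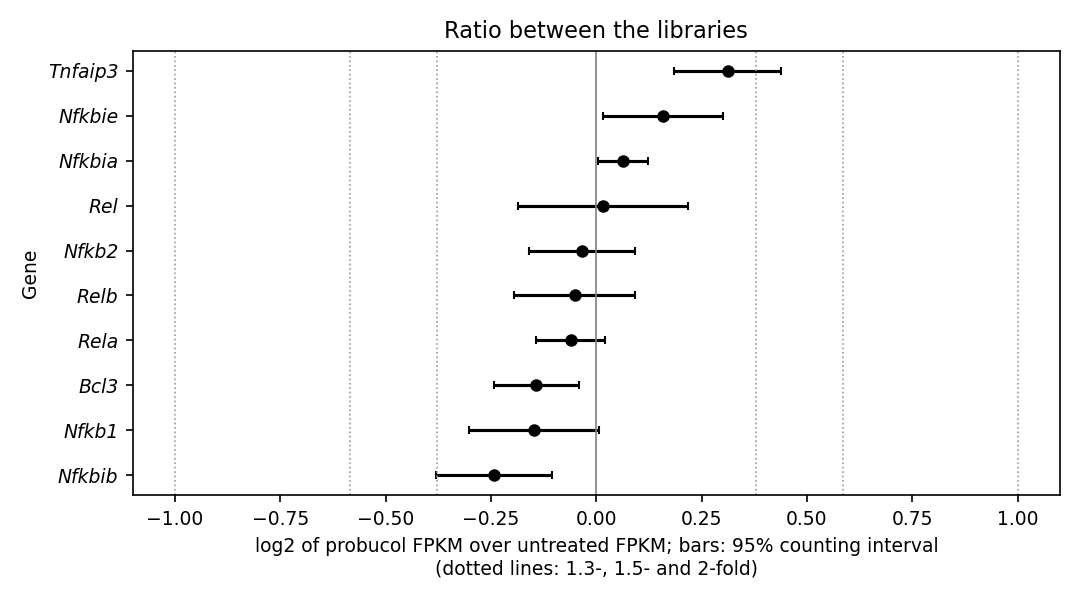
Log2 of the fold of probucol over untreated FPKM for each of the 10 genes (1 library per group), with 95% counting intervals; dotted lines mark 1.3-, 1.5- and 2-fold in each direction. Every point lies inside the 1.3-fold lines, from Nfkbib at a fold of 0.845 to Tnfaip3 at 1.24, and 5 of the 10 intervals cross 0.

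The order of the levels was nearly the same in both libraries. With probucol it ran Nfkbia, Rela, Bcl3, Nfkbib, Relb, Nfkbie, Nfkb2, Tnfaip3, Nfkb1 and Rel, and 6 of the 10 genes held the same rank untreated. The 4 that did not were the neighbours Rela and Bcl3, and Nfkbie and Nfkb2, which changed places. Within each library the counting intervals of Rela and Bcl3 overlapped, and so did those of neighbours among Relb, Nfkbie and Nfkb2, while all other neighbours in the order were apart. The highest level was 61.3 times the lowest with probucol and 59.4 times untreated.

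Ratios of FPKM inside a library do not depend on how the libraries were scaled to each other. They do move with the trend by transcript length where the paired genes differ in length. With the median ratio of genes of similar length subtracted, Rel (7466 bases) had a log2 ratio of -0.16 and Nfkbia (1578 bases) 0.10. The quotients below are without that correction. Nfkbia stood at 3.70 times the level of Rela with probucol and 3.40 times untreated, so the quotient between the libraries was 1.09. Against Rel, Nfkbia stood at 61.3 and 59.4 times, a quotient of 1.03. Of the 7 pairs compared, Tnfaip3 against Rela moved most, from 0.224 untreated to 0.290 with probucol, a quotient of 1.29. The balance of the precursors, Nfkb2 over Nfkb1, was 2.17 with probucol and 2.001 untreated (quotient 1.08). Relb over Rela was 0.419 and 0.416 (quotient 1.01), Rel over Rela 0.0604 and 0.0572 (1.06), and Bcl3 over Nfkb1 5.61 and 5.59 (1.004). Only the quotients of Nfkbia and of Tnfaip3 over Rela exceeded the counting widths of both genes combined, 1.07-fold and 1.11-fold.

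The other genes of the pathway were taken from 7 lists of 128 genes, of which all 128 were found and 115 had a mean of 1 FPKM or more. At least 2-fold higher with probucol were 0 of these 115 and at least 2-fold lower were 5, beside 1.62% and 1.98% of all genes tested. Past 1.5-fold were 9 higher and 10 lower, where 5.99% and 5.53% of all genes tested were; together they are 16.5% of the 115 beside 11.5% of all genes tested. Most of the genes past 1.5-fold were receptors, ligands or target genes: 7 of 16 receptors, 3 of 10 ligands and 5 of 30 targets, against 1 of 18 other negative regulators, 1 of 16 kinases, 1 of 8 genes of the antigen receptor branch and 1 of 17 ubiquitin ligases and adaptors.

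**Figure D3:**
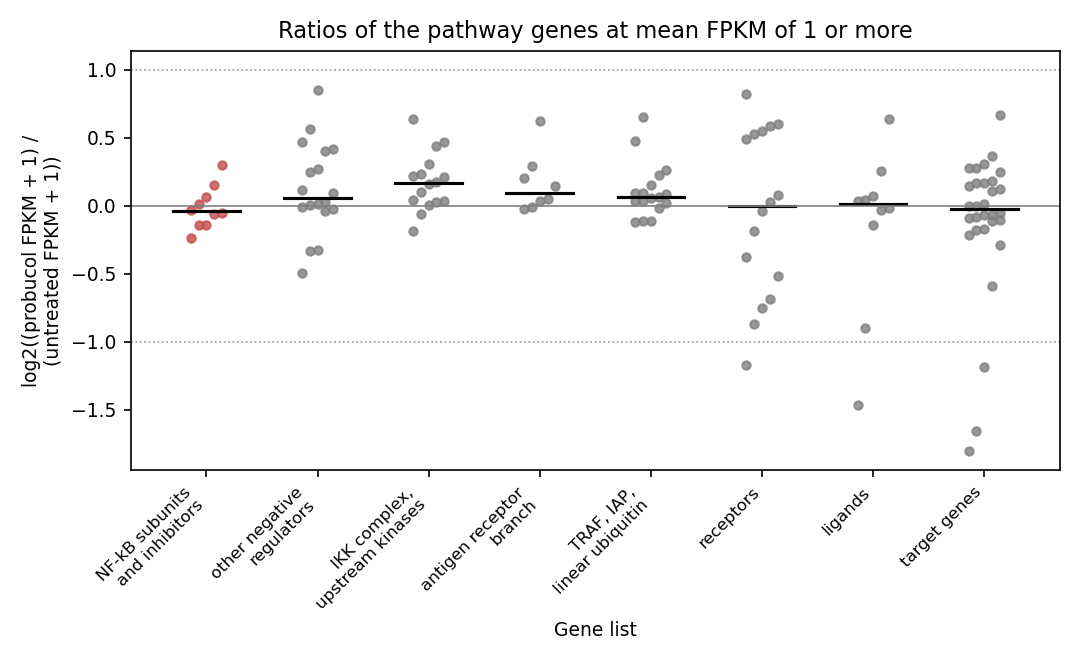
Log2((probucol FPKM + 1)/(untreated FPKM + 1)) of each gene with a mean FPKM of 1 or more in the 8 lists; points are genes of 1 library per group, thick lines list medians, and dotted lines mark 2-fold. The 10 subunits and inhibitors lie between -0.24 and 0.30, the receptors between -1.17 and 0.82, and the target genes between -1.80 and 0.67.

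The IkB kinase complex and the kinases above it had a median log2 ratio of 0.17, with 14 of 16 genes above 0, 2 below 0 and 0 past 2-fold. Chuk, which encodes the catalytic subunit IKK alpha, was at 31.0 FPKM with probucol against 19.6 FPKM untreated, a fold of 1.58 (1.43 to 1.75). The kinases Csnk2a1 (18.3 and 12.9 FPKM) and Map3k7 (13.3 and 9.55 FPKM), the latter encoding TAK1, followed with log2 ratios of 0.47 and 0.44. At the low end stood Map3k14, which encodes NIK, at 8.44 and 9.72 FPKM, then Tab1 at 8.83 and 9.23 FPKM and Ripk2 at 13.2 and 13.1 FPKM. The median ratio over all genes tested was -0.12 in the shortest of 10 bins of transcript length and 0.17 in the longest. After the median of its length bin was subtracted from each gene, the median of the kinases was 0.05 and that of the 10 members -0.06.

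The antigen receptor branch, which carries the T cell receptor signal to IkB kinase through BCL10 and MALT1, had a median of 0.10 over 8 genes, with 0 past 2-fold. Its highest ratios were those of the scaffold Dlg1 (10.1 and 6.21 FPKM, log2 ratio 0.63), the exchange factor Vav1 (95.4 and 77.5 FPKM, 0.30) and the protease Malt1 (28.7 and 24.8 FPKM, 0.20). Csnk1a1 (135 and 137 FPKM), Cd28 (82.2 and 82.8 FPKM) and Pdpk1 (25.3 and 24.6 FPKM) had the lowest, all within 0.04 of 0. The ubiquitin ligases and adaptors had a median of 0.06 over 17 genes, with 0 past 2-fold. Traf6, the ligase that links interleukin 1 and Toll-like receptors to TAK1, was highest at 13.7 and 8.34 FPKM (0.66), followed by the caspase inhibitor Xiap (3.20 and 2.03 FPKM, 0.47) and Traf3ip3 (174 and 145 FPKM, 0.26). Traf1, Rbck1 and Traf5 were lowest, with log2 ratios of -0.12, -0.11 and -0.11.

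The other negative regulators had a median of 0.06 over 18 genes, with 12 above 0, 6 below 0 and 0 past 2-fold. Tnip2, which encodes the A20-binding protein ABIN-2, had the highest ratio at 25.5 FPKM with probucol against 13.7 FPKM untreated, a fold of 1.87 (1.59 to 2.19). Nfkbiz, which encodes the atypical IkB zeta, was at 20.01 and 13.2 FPKM, a fold of 1.52 (1.35 to 1.71), and Nkiras1, which encodes a RAS-like protein that binds IkB, at 4.23 and 2.78 FPKM. Otulin, which removes linear ubiquitin chains, had the lowest ratio at 65.8 and 93.1 FPKM, a fold of 0.707 (0.646 to 0.772), followed by Nfkbil1 (11.4 and 14.6 FPKM) and Nkiras2 (5.998 and 7.74 FPKM). These genes reached larger ratios in both directions than the 10 members did. The list is longer, though, and a range widens with the number of genes. Of the 18 genes, 1 was past 1.5-fold.

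Of the receptors that signal to NF-kB, 8 of 16 were higher and 8 lower, with a median of -0.00342. The only receptor past 2-fold was Il18rap, a subunit of the interleukin 18 receptor, at 1.82 and 5.33 FPKM. Tnfrsf9 (26.2 and 48.5 FPKM) and Tnfrsf4 (213 and 360 FPKM), which encode the costimulatory receptors 4-1BB and OX40, had the next lowest log2 ratios, -0.87 and -0.75. The highest ratios were those of Tlr7 (1.85 and 0.612 FPKM), the interleukin 33 receptor gene Il1rl1 (1.52 and 0.667 FPKM) and Tnfrsf13b (16.8 and 10.9 FPKM), which encodes the BAFF and APRIL receptor TACI. B cells express TACI and TLR7, and the B cell markers were higher in the same library. The part of B cells or other cells in the values of Tnfrsf13b and Tlr7 was not tested. Cd40, a receptor of B cells and myeloid cells, was at 0.612 FPKM with probucol and listed at 0 untreated.

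Of the ligands, 5 of 10 were higher and 5 lower. The only ligand past 2-fold was Il1b, which encodes interleukin 1 beta, a cytokine mainly of myeloid cells, at 0.269 and 2.50 FPKM on about 3 and 29 fragments, a fold of 0.108 (0.0216 to 0.343). Il18 (1.98 and 4.55 FPKM) and Ltb (966 and 1064 FPKM), which encodes lymphotoxin beta, were next. The 9 neutrophil markers found, none at 0, summed to 1078 and 961 FPKM and the 13 macrophage markers, none at 0, to 203 and 196 FPKM; most of the neutrophil sum came from S100a8 (591 and 536 FPKM) and S100a9 (258 and 217 FPKM), and most of the macrophage sum from Lyz2 (125 and 132 FPKM). Of the 9 neutrophil markers, 8 were higher with probucol, 2 of them past 2-fold, and 1 was lower. Of the 12 macrophage markers with a mean of 1 FPKM or more, 8 were higher with probucol and 4 lower. The part of these cells in the Il1b values was not tested. Tnf (12.1 and 7.46 FPKM), Lta (30.2 and 25.1 FPKM) and Cd40lg (134 and 127 FPKM) had the highest ratios.

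Genes known as NF-kB targets in lymphocytes, a longer list, spread wider than the members at both ends. Of 30, 14 were higher and 16 lower, with a median of -0.02, and 25 lay within 1.5-fold. The 3 past 2-fold were the chemokine genes Ccl5, Ccl3 and Ccl4, with log2 ratios of -1.80, -1.66 and -1.18. They stood at 131 and 459 FPKM (Ccl5), 1.55 and 7.03 FPKM (Ccl3) and 15.3 and 36.0 FPKM (Ccl4). Natural killer cells also express these genes. Of the 5 natural killer markers with a mean of 1 FPKM or more, 4 were lower and 1 higher with probucol. All 8 natural killer markers summed to 8.78 and 18.7 FPKM. The part of these or other cells in the chemokine values was not tested. The highest ratios were those of the adhesion molecule Vcam1 (8.11 and 4.73 FPKM, 0.67), the cyclin Ccnd2 (219 and 170 FPKM, 0.37) and Tnfaip2 (1.67 and 1.16 FPKM, 0.31). Vcam1 is also on the macrophage list given above.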

How the data were processed

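Per the labels' protocols, RNA came from the miRNeasy Micro Kit, cDNA from SMART-Seq HT and libraries from a Nextera kit. The deposited values are FPKM per the file headers, 1 per symbol and library. The submitters' processing notes name TopHat2 2.1.1, Bowtie2, Cuffdiff 2.2.1 and mm10 with no roles; for the annotation and any scaling across libraries, the sources used here give nothing.

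FPKM are not counts, and with 1 library per group no test was run (Python 3.11.15, pandas 2.3.3, scipy 1.17.1). Log2 ratios used FPKM + 1, which understates changes of low genes; folds of single genes are ratios of FPKM. Genes with a mean of 1 FPKM or more were compared. Depth was estimated from the steps of low FPKM values of single-transcript genes of 800 to 10000 bases: 0.101 and 0.100 FPKM per fragment at 1 kb with 200 and 210 bases subtracted (probucol, untreated), with 76.8% and 76.2% of the values within 0.1 of a whole number, where 20% would be by chance. Fragment numbers used the median length of RefSeq-matched GENCODE M21 transcripts, and 95% intervals are exact (Clopper-Pearson for folds, Poisson for levels), approximate for genes with several transcripts. The scripts were tested on simulated data.

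The members and lists were chosen with earlier results of these data known. Named are all members, a fixed set of markers and, in each other pathway list, the genes past 2-fold and up to 3 with the highest and 3 with the lowest ratios; Cd40 was named after its values were seen. Some list genes are not reported here and were left out of the lists. Alternatives were other pseudocounts, filters, scalings, the mean and a length correction.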

Additional observations from a re-analysis of the deposited data

How the results depend on the processing

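None of the 10 members was past 2-, 1.5- or 1.3-fold under any of the 7 alternatives. These were a pseudocount of 0.1 or 5, a mean of 5 FPKM or more, no filter, equal sums and centring on the median gene. The last was subtraction of the median of the length bin, added after seeing the data. The filters left the ratios of the members unchanged, and a pseudocount of 5 can only shrink them. Those settings could not take a member past a fold. The log2 ratios of 9 members kept their sign in all 7, while that of Rel ran from -0.16 to 0.03. Only equal sums, centring and the length-bin subtraction could change a sign. Pseudocounts cannot do so, and the filters leave the ratios of the members as they were. Tnfaip3 ran from 0.19 to 0.32, the lowest with the length-bin median subtracted, where Nfkbib and Nfkb1 were alike in size within counting error. The counting intervals are for FPKM as deposited, and which of them include 1 depends on the scaling. With centring, the log2 ratio of Nfkb1 (-0.157) was past its counting width of 0.155 to each side. Those of Nfkbia (0.046, width 0.059) and Nfkbie (0.137, width 0.143) were then within theirs. With equal sums, Nfkb1 (-0.118) was within its width and Nfkbia (0.087) and Nfkbie (0.177) past theirs. With the length-bin median subtracted, Nfkb1 (-0.198) was again past it. The median of the members ran from -0.06 to -0.01, the last being the mean in its place. The counts over all genes moved more. Past 2-fold, against 173 genes higher and 211 lower, pseudocount 0.1 gave 313 and 357, a pseudocount of 5 gave 55 and 64, and the filter at 5 FPKM gave 83 and 96. Past 1.5-fold (639 and 590 as reported), the same pseudocount of 5 gave 206 and 200 and the stricter filter 325 and 272. Past 1.3-fold (1498 and 1216) they gave 662 and 606, then 886 and 689. With no filter 1071 genes were lower past 1.5-fold and 2272 past 1.3-fold. The receptor list had a median of -0.19 at a mean of 5 FPKM or more; there, fewer genes enter. No paired analysis was possible because each group has 1 library. Leaving out a replicate was not possible for the same reason. Differences smaller than the counting intervals were not detectable at this depth.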

Other observations

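Genes with and without a match to the kappa B decamer had similar ratios in these libraries. A match of letters does not show binding, so the sets are not bound and unbound genes. Among genes with a mean of 1 FPKM or more and a RefSeq promoter entry, 973 had a match in at least 1 window and 7159 had none. Their median log2 ratios were 0.02 and 0.02, with 4.62% and 5.87% at least 1.5-fold higher with probucol and 4.73% and 5.04% at least 1.5-fold lower. The median level was 14.8 FPKM in both sets. Genes are not replicates, so these shares are a description, and a window of this size does not hold distant sites.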
